A study of Mus musculus with 6 samples.

Results

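The genes described here carry the interferon response and antigen presentation. They were taken by symbol from the deposited table, which lists all 47 of them among 43346 rows. Of the 47, 43 had enough reads to be tested, and the filter left out Ciita, Oas1a, Mx1 and Igtp. By role, 8 belong to the major histocompatibility complex (MHC) class I pathway, 5 to the class II pathway, 27 to the response to type I interferon, and 7 encode GTPases known for their induction by interferon gamma. RNA was sequenced from the brain of 3 adult males deficient for Kdm5c, an X-linked demethylase of histone H3 lysine 4, and of 3 adult wild-type male littermates. Both genotypes came from a cross of a heterozygous deficient C57BL/6 mother with a wild-type 129 father, so all mice share a mixed C57BL/6 and 129 background (50:50). The labels describe neither the Kdm5c allele nor the part of the brain taken, and the deficiency is not limited to a cell type in them. In bulk brain, fewer cells of a type and less RNA per cell cannot be told apart.

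Type I interferons act through a receptor bound by the kinases Jak1 and Tyk2, and a complex that holds Stat2 and Irf9 then binds the interferon-stimulated response element (ISRE) of target promoters. Interferon gamma acts through Jak1 and Jak2, induces Irf1 and the class II activator Ciita, and raises the immunity-related GTPases (Irg family) and guanylate-binding proteins (Gbp family), which attack vacuoles that hold parasites or bacteria. In the healthy brain most of these genes are kept low, and microglia, vessels and the cells of the brain's borders carry much of what is expressed.

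Promoter windows of RefSeq (GRCm38.p6, 250 bases before and 50 after each start) were found for 34 of the 47 genes. A core ISRE was searched on both strands as GAAANNGAAA, and 19 of the 34 held at least 1 match, 55.9%, beside 3.99% of 27025 genes with a window. The interferon gamma site, searched as TTCNNNGAA, was present in 9 of the 34, 26.5%, beside 9.55% of all genes. All 6 of the GTPase genes with a window held an ISRE core, as did 11 of 20 type I response genes, 2 of 6 class I genes and 0 of 2 class II genes. The sites below are those of Irgm1, the 1 gene that differed between genotypes, of other GTPase genes, and of 3 type I response genes described below, so that the motif can be compared between them. Of these only Irgm1 passed the test, and Igtp was not tested. Capitals mark the match or run of overlapping matches, on the strand of the gene, in its direction of transcription.
Irgm1 (chr11:48871428-48871457, minus strand): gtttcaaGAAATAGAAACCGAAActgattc
Irgm2 (chr11:58214903-58214932, plus strand): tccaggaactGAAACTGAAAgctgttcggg
Igtp (chr11:58199512-58199541, plus strand): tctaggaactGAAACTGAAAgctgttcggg
Gbp2 (chr3:142620594-142620623, plus strand): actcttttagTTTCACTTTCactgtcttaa
Gbp3 (chr3:142559992-142560021, plus strand): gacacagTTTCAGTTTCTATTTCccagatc
Isg15 (chr4:156200871-156200900, minus strand): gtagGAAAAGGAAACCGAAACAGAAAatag
Bst2 (chr8:71537580-71537609, minus strand): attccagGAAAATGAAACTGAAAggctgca
Stat2 (chr10:128270266-128270295, plus strand): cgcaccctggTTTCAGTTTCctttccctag
In Irgm1 the run covered 16 bases and began 30 bases before the RefSeq start, although GENCODE M21 places the start of the gene 263 bases further upstream. Isg15 had the longer run of 22 bases, from 78 bases before its start. Both motifs can share bases, as they do in Bst2. A match of these letters is a description of the sequence and does not show that a factor binds there.

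The libraries held 20221675 to 24555412 counts. Kdm5c RNA was 72.8 ± 6.75 CPM (counts scaled to the size of each library, in the usual unit) in deficient and 81.5 ± 3.43 CPM in wild-type brain (SD, n = 3 each), an overlap that does not check the labels, since the allele is not described. Marker RNAs of neurons, astrocytes and oligodendrocytes were abundant in every mouse. Deficient mouse 2 stood apart, with a summed level of 8 cerebellar marker genes of 176 CPM, against 936 to 1537 CPM in the other 5 mice. Summed levels of 6 oligodendrocyte markers were lower in deficient (5394 to 6841 CPM) than in wild-type mice (6998 to 7916 CPM). Taken singly, 1 of these 6 did not overlap between genotypes, 16.7% beside 30.8% of all tested genes. The p-values set the difference between genotypes against the spread between mice of a genotype, for these 6 animals.

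Few of these genes differed between genotypes beyond the spread between mice. By edgeR's quasi-likelihood test at an adjusted p under 0.05, 1 of the 43 tested genes was higher (Irgm1) and 0 were lower, or 2.33%, beside 4.93% called over all 15127 tested genes, 2.45% higher and 2.48% lower. At an unadjusted p under 0.05, 2 were higher and 4 lower, 14.0% of the 43 beside 24.9% of all tested genes. The median log2 fold change of the 43, deficient over wild type, was -0.01, and 20 of them were positive, where 50.3% of all tested genes were. Levels of 8 of the 43 did not overlap between genotypes, 3 higher and 5 lower, which is 18.6% beside 30.8% of all tested genes (14.9% higher and 16.0% lower). The shares called, at an unadjusted p and without overlap thus all lay below those of all genes, although the share called rests on 1 gene. Many of these genes were low in brain, which limits what could be called. The part of low counts in these lower shares was not tested. DESeq2 called Irgm1 higher and Stat2 lower, and limma-voom called Irgm1 higher and 0 lower.

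**Figure D1:**
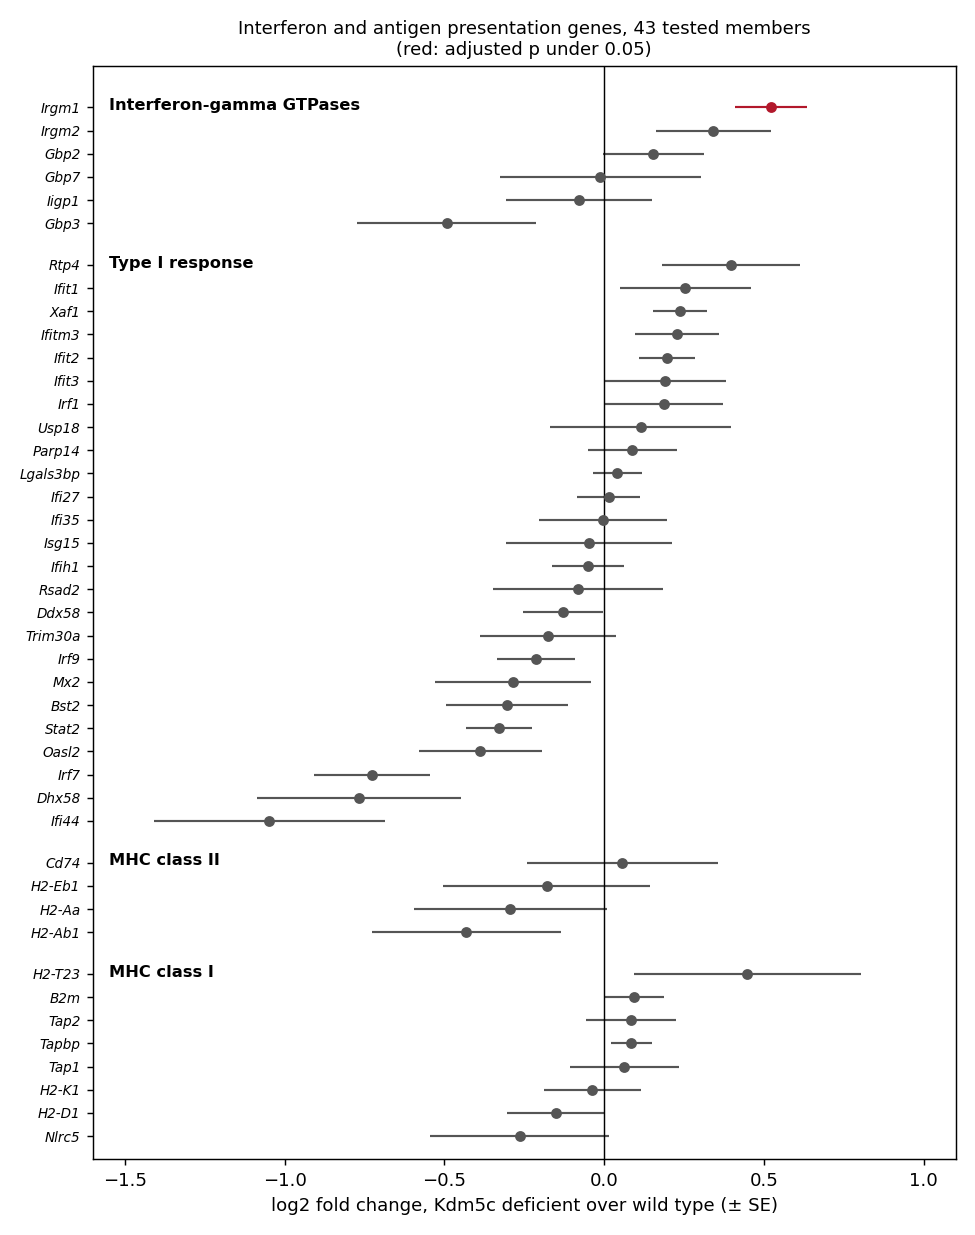
Log2 fold change (deficient over wild type, horizontal axis) with its standard error for each of the 43 tested genes, grouped by role. Irgm1, in red at 0.52, was the gene past the adjusted p of 0.05, and the estimates ran from -1.05 for Ifi44 to 0.52 for Irgm1.

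Irgm1 encodes an immunity-related GTPase of the regulatory kind, which sits on the cell's own membranes and keeps the effector GTPases in check. It lies on chromosome 11 at 48861968 to 48871683 (GRCm38, GENCODE M21), and no other annotated exon overlaps its own. Its levels were 10.3, 10.4 and 8.70 CPM in deficient mice 1, 2 and 3, and 6.60, 7.44 and 6.47 CPM in wild-type mice 1, 2 and 3. All 3 deficient mice were above all 3 wild-type mice. The means of 9.80 ± 0.951 and 6.84 ± 0.524 CPM (SD, n = 3 each) differed 1.43-fold, at a log2 fold change of 0.52 ± 0.11 (SE; edgeR adjusted p = 0.0385). Permuting the genotypes over the 6 mice (exact, two-sided) gave p = 0.1, the smallest value that 3 against 3 mice allow. The authors' deposited table gives Irgm1 a log2 value of 0.405, with its sign turned to deficient relative to wild type, and 0.000795 as the unadjusted p. The call did not hold in every fit with 1 mouse removed. It held without deficient mouse 1 (adjusted p = 0.0382 by edgeR). The call was lost without deficient mouse 2 or 3 (edgeR adjusted p = 0.0568 and 0.0520) and without wild-type mouse 1, 2 or 3 (0.138, 0.111 and 0.119). The log2 fold change stayed between 0.48 and 0.60. Removing a mouse also changed the number called over all tested genes, which was 746 with all mice. That number was 2098, 684 and 155 without deficient mouse 1, 2 or 3, and 44, 53 and 99 without wild-type mouse 1, 2 or 3. A lost call therefore does not show that Irgm1 depends on a particular mouse.

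Summed markers of microglia, endothelium and astrocytes were also higher in the deficient mice, while those of oligodendrocytes were lower, as given above. Of the 6 oligodendrocyte markers 1 was called lower by edgeR (16.7%, beside 4.93% of all tested genes) and 2 by DESeq2, and 6 were negative. The summed level of 14 microglial markers was 361, 409 and 374 CPM in deficient mice 1, 2 and 3 and 334, 323 and 325 CPM in wild-type mice, with 2 of the 14 called higher by edgeR, Siglech (log2 fold change 0.66) and Fcrls (0.80), 14.3% beside 4.93% of all tested genes. DESeq2 called 5 higher, 8 had an unadjusted p under 0.05 and 8 did not overlap (57.1% each, beside 24.9% and 30.8% of all tested genes), and 12 were positive. Siglech and Fcrls each stayed called in 2 of 6 fits with a mouse removed, fits that called 44 to 2098 of all tested genes. The summed level of 10 endothelial markers was 338 to 386 CPM against 326 to 332 CPM, with 0 called by edgeR and 1 higher by DESeq2. At an unadjusted p under 0.05 by edgeR 3 of the 10 were higher, 30% beside 24.9% of all tested genes. That of 6 astrocyte markers was 4059 to 4522 CPM against 3693 to 3966 CPM, with 1 called higher by edgeR (16.7%, beside 4.93%) and 3 by DESeq2. Over all 15127 tested genes DESeq2 called 1213. The genotypes did not overlap in these 3 sums. Nor did they in that of 6 meningeal fibroblast markers, at 93.4 to 105 CPM in deficient and 84.7 to 92.8 CPM in wild-type mice. Of these 6 markers 5 were positive, and 1, Lum, was called lower by edgeR (16.7%, beside 4.93%). The part of these sums in the level of Irgm1 was not tested.

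The other GTPases of this group did not follow Irgm1 past the threshold. Irgm2, also a regulatory Irg gene, had 3.43, 3.15 and 2.30 CPM in deficient mice and 2.39, 2.20 and 2.41 CPM in wild-type mice. Deficient mice 1 and 2 were above every wild-type mouse and deficient mouse 3 lay among them, with a log2 fold change of 0.34 ± 0.18 (SE; edgeR adjusted p = 0.274). Igtp, the third regulatory Irg gene, had 1 to 5 reads a mouse and was not tested. Exons of Irgm2 and Igtp overlap on the same strand, so their reads are uncertain.

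The effector Irg gene Iigp1 and the guanylate-binding protein genes reached at most 3.44 CPM in any mouse. Gbp3 had 0.940, 0.713 and 0.506 CPM in deficient mice and 1.13, 1.08 and 0.831 CPM in wild-type mice, a log2 fold change of -0.49 ± 0.28 (SE; edgeR adjusted p = 0.307). The lowest wild-type mouse lay within the deficient range. Gbp2 (0.15), Gbp7 (-0.01) and Iigp1 (-0.08) had log2 fold changes closer to 0, with standard errors from 0.16 to 0.31. In this group 3 of 6 tested genes were positive, at a median of 0.07, and relatives with the same kind of promoter motif therefore had estimates of either sign.

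**Figure D2:**
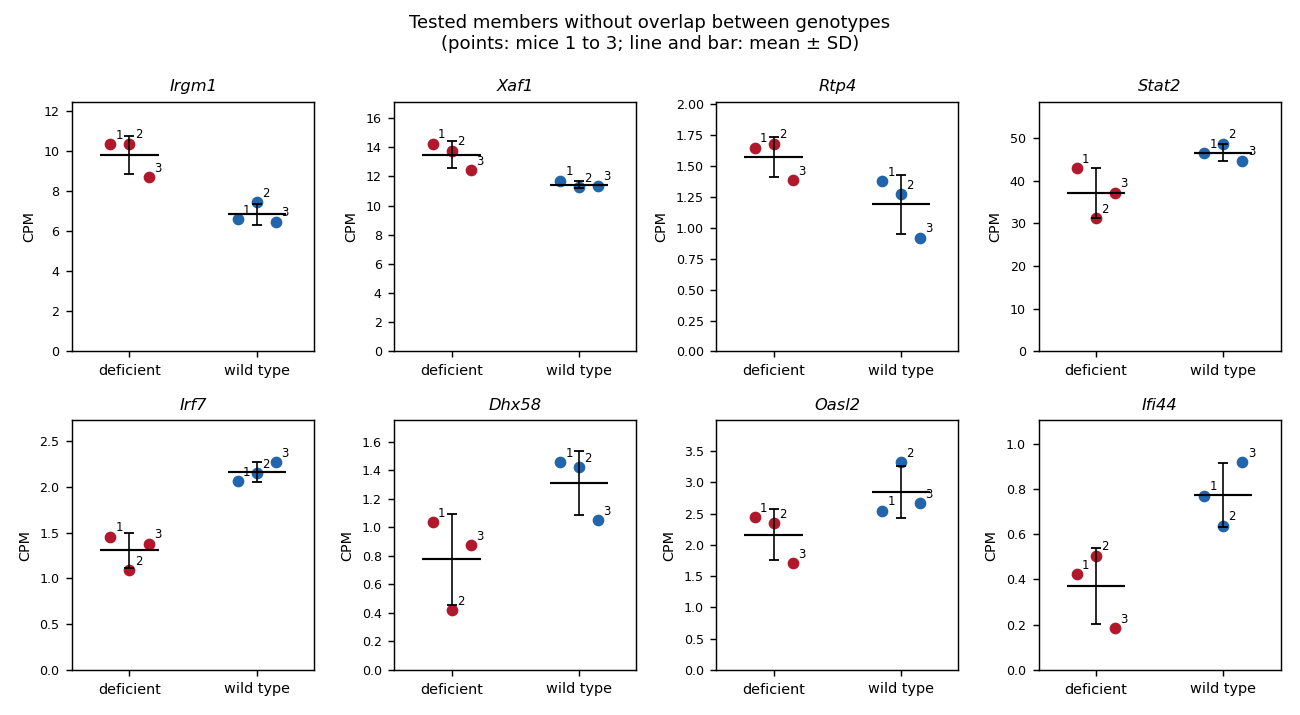
CPM of the 8 tested genes whose levels did not overlap between genotypes, with 1 point per mouse, numbered 1 to 3, and the mean ± SD of each genotype. Irgm1, Xaf1 and Rtp4 were higher and Stat2, Irf7, Dhx58, Oasl2 and Ifi44 lower in all deficient mice, but only Irgm1 passed the test.

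Among the 25 tested genes of the type I response 0 were called in either direction by edgeR or limma-voom and 1, Stat2, was called lower by DESeq2. At an unadjusted p under 0.05 by edgeR 1 was higher and 4 lower, 20% of the 25 beside 24.9% of all tested genes. The estimates ran from -1.05 to 0.40, at a median of -0.05. Irf7, which amplifies interferon production once the pathway is active, had 1.46, 1.09 and 1.38 CPM in deficient mice and 2.06, 2.15 and 2.27 CPM in wild-type mice. The genotypes were separated by a gap wider than the range within either genotype. Its log2 fold change was -0.73 ± 0.18 (SE), outside the threshold at an adjusted p of 0.0553 by edgeR. The adjusted p was 0.144 by DESeq2, and 0.123 by edgeR with the replicate block. Without deficient mouse 2, the mouse low in cerebellar markers, the log2 fold change was -0.61 (edgeR adjusted p = 0.134), and without deficient mouse 1 it was -0.81 (0.0402). The fit without deficient mouse 1 called 2098 genes over the whole table, beside 746 with all mice. An exon of Irf7 overlaps the antisense neighbour Phrf1.

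Stat2, the DNA-complex subunit particular to type I and III signalling, was the most abundant of the 4 transcription factor genes per transcript length (9.51 RPKM). It had 42.9, 31.2 and 37.2 CPM in deficient mice and 46.4, 48.7 and 44.7 CPM in wild-type mice. Deficient mouse 1 lay close under the wild-type range and deficient mouse 2 was lowest. The log2 fold change was -0.33 ± 0.10 (SE, adjusted p = 0.0969 by edgeR and 0.0387 by DESeq2), with a range of -0.45 to -0.22 over the alternatives. The first end of that range came without deficient mouse 1 (edgeR adjusted p = 0.0131) and the other without deficient mouse 2 (0.129). Over the whole table the former fit called 2098 genes, beside 746 with all mice. The 8 cerebellar markers were lower on average in deficient mice too, 7 of them without overlap (87.5%, beside 30.8% of all tested genes). Of the 8, 0 were called by edgeR, DESeq2 or limma-voom, and 0 had an unadjusted p under 0.05 by edgeR. The part of this cerebellar difference or of the oligodendrocyte sums in Stat2 and Irf7 was not tested. Irf9, another subunit of that complex, had a log2 fold change of -0.21 ± 0.12 (SE), and Irf1, the early interferon gamma target, 0.19 ± 0.18. In both, the genotypes overlapped.

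None of the 3 cytosolic RNA sensors passed the test. Dhx58, which encodes the regulatory sensor LGP2, had 1.03, 0.420 and 0.875 CPM in deficient mice and 1.46, 1.42 and 1.05 CPM in wild-type mice. Its genotypes were narrowly separated, at 1.03 and 1.05 CPM, with a log2 fold change of -0.77 ± 0.32 (SE; edgeR adjusted p = 0.181), and its exons overlap an antisense gene. Without deficient mouse 2 the estimate was -0.45. In the signalling sensors the genotypes overlapped. Ifih1 (MDA5) had 4.79 to 5.33 CPM in deficient and 4.85 to 5.42 CPM in wild-type mice, and Ddx58 (RIG-I) 4.65 to 5.75 and 5.47 to 6.36 CPM.

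Of the antiviral effectors, Ifi44 had the most negative estimate. The 3 deficient libraries held 9, 12 and 4 reads of Ifi44 and the wild-type libraries 19, 13 and 21, or 0.423, 0.504 and 0.184 CPM against 0.769, 0.636 and 0.918 CPM. The log2 fold change was -1.05 ± 0.36 (SE; edgeR adjusted p = 0.121). This gene reached the filter through the wild-type mice, since 1 of 3 deficient libraries was over the minimum and all 3 wild-type libraries were. Oasl2, of the oligoadenylate synthetase family, had 2.44, 2.35 and 1.70 CPM against 2.55, 3.33 and 2.67 CPM, a log2 fold change of -0.39 ± 0.19 (SE; edgeR adjusted p = 0.247). Its deficient mice were the 3 lowest, by a small margin. Bst2 (tetherin), which holds budding virions at the cell surface, had 2.49, 2.01 and 2.26 CPM against 3.08, 3.13 and 2.14 CPM, and wild-type mouse 3 lay within the deficient range.

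Other effectors had positive estimates that did not pass the test. Xaf1, an interferon-induced gene tied to apoptosis, had 14.2, 13.8 and 12.4 CPM in deficient mice and 11.7, 11.3 and 11.4 CPM in wild-type mice. The deficient mice were the 3 highest, at a log2 fold change of 0.24 ± 0.08 (SE; edgeR adjusted p = 0.134). Rtp4 had 1.65, 1.68 and 1.38 CPM against 1.38, 1.27 and 0.918 CPM, so that deficient mouse 3 and wild-type mouse 1 all but touched (log2 fold change 0.40 ± 0.22, SE). Ifitm3, which restricts virus entry in endosomes, had 7.80, 6.04 and 6.22 CPM against 6.07, 5.77 and 5.25 CPM, with overlap. The genes most used as signs of a type I response had estimates on both sides of 0: Ifit1 0.25 ± 0.21, Ifit2 0.20 ± 0.09, Usp18 0.11 ± 0.28, Isg15 -0.05 ± 0.26 and Rsad2 -0.08 ± 0.27 (log2 fold change, SE). Isg15 had 12 to 24 reads a mouse and Rsad2 17 to 35.

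Several of these genes have near copies. At 95% identity or more, Oas1a shares 100% of its longest annotated transcript with Oas1g, Ifit3 97.4% with Ifit3b, Isg15 63.8% with AC151275.1 and Mx2 34.0% with Mx1, so their reads are uncertain. Mx1, known to carry a disabling deletion in common laboratory strains, had 3 to 8 reads a mouse and Oas1a 3 to 6, both under the filter.

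In the class I pathway 0 of 8 genes were called in either direction by edgeR, DESeq2 or limma-voom, 0 had an unadjusted p under 0.05, and none was without overlap. The estimates ran from -0.26 for Nlrc5, the class I transactivator, to 0.45 for H2-T23, a non-classical class I gene, at a median of 0.07. Nlrc5 reached the filter through the wild-type mice, with 1 deficient and 3 wild-type libraries over the minimum. H2-T23 had 2.63, 1.301 and 1.24 CPM in deficient and 1.74, 0.930 and 1.05 CPM in wild-type mice, with overlap and a high deficient mouse 1. B2m, the light chain shared by all class I molecules, had 14.7, 12.6 and 12.2 CPM in deficient mice and 12.8, 11.99 and 12.2 CPM in wild-type mice. Deficient mouse 1 was highest and the others were level, for a log2 fold change of 0.09 ± 0.09 (SE). The classical heavy chain gene H2-D1, the highest of the 47 per transcript length at 25.9 RPKM (CPM per kilobase of the longest annotated transcript), had 66.3, 40.0 and 48.5 CPM against 54.6, 60.5 and 56.6 CPM. Both the highest and the lowest mouse were deficient, at a log2 fold change of -0.15 ± 0.15 (SE).

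The direction of H2-D1 depended on single mice. Without deficient mouse 1 its log2 fold change was -0.37 and passed the threshold (adjusted p = 0.0264 by edgeR), and without deficient mouse 2 it was 0.00. The fit without deficient mouse 1 called 2098 genes over the whole table, beside 746 with all mice. H2-K1, the other classical heavy chain here, had 28.0, 21.5 and 19.7 CPM against 21.9, 20.6 and 28.3 CPM, 1 high mouse in each genotype. H2-D1 shares 25.8% and H2-T23 35.3% of the longest transcript with other genes at 95% identity or more, chiefly other class I genes, while H2-K1 shares 2.10%. Of the peptide loading genes Tapbp was the steadiest, with its highest mouse 1.19-fold over its lowest. In Tap1 and Tap2 this ratio was 1.41 and 1.38, beside 1.44 in H2-K1 and 1.66 in H2-D1. Tapbp (tapasin), which holds empty class I molecules at the peptide transporter, had 33.7, 31.3 and 31.2 CPM against 31.3, 31.1 and 28.3 CPM. Exons of Tapbp overlap Zbtb22 on the same strand and Gm19412 on the other, and 28.9% of its longest transcript is shared with other genes. Its reads are therefore uncertain. The transporter subunit genes Tap1 and Tap2 had log2 fold changes of 0.06 ± 0.17 and 0.08 ± 0.14 (SE).

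**Figure D3:**
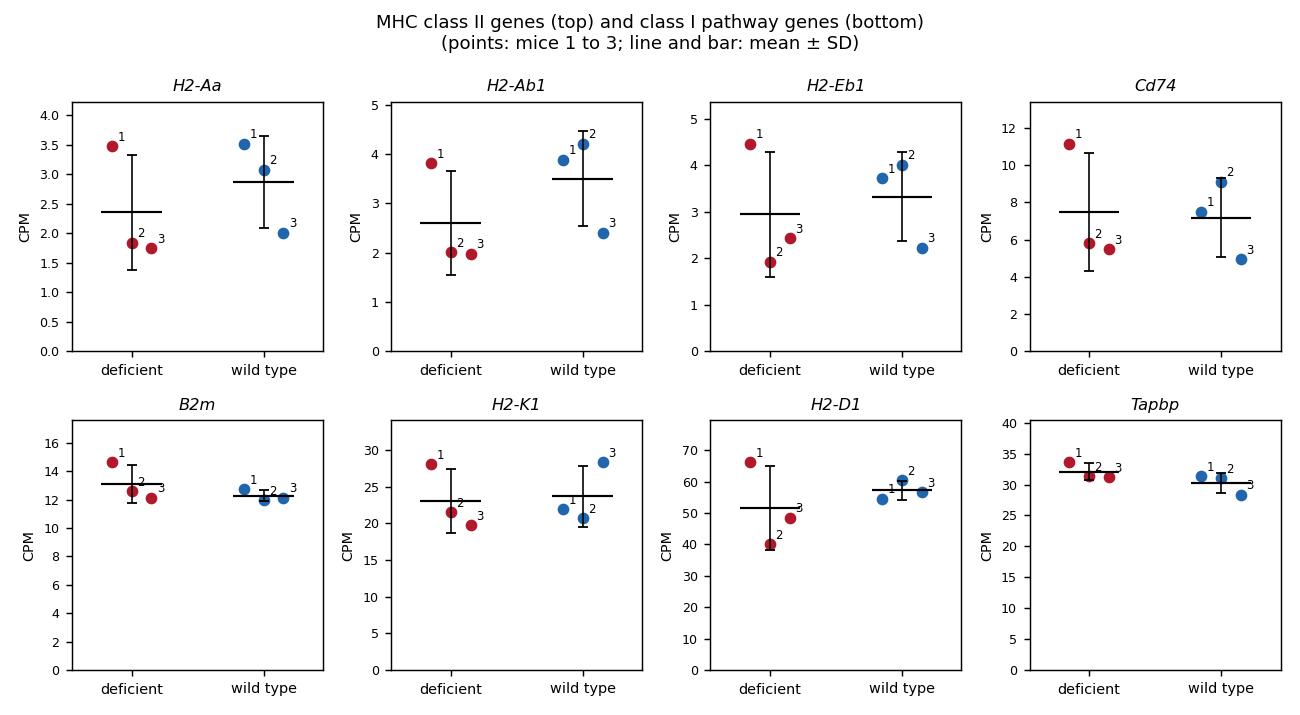
CPM of the 4 tested class II genes (top) and of 4 class I pathway genes (bottom), with 1 point per mouse, numbered 1 to 3, and the mean ± SD of each genotype. In all 4 class II genes deficient mouse 1 and wild-type mice 1 and 2 were the 3 highest.

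The class II genes varied from mouse to mouse across the genotypes. H2-Aa, the alpha chain of the I-A molecule, had 3.48, 1.85 and 1.75 CPM in deficient mice and 3.52, 3.08 and 2.01 CPM in wild-type mice. H2-Ab1, its beta chain, had 3.81, 2.01 and 1.98 CPM against 3.89, 4.21 and 2.41 CPM. Cd74, the invariant chain that escorts class II molecules, had 11.1, 5.79 and 5.48 CPM against 7.49, 9.10 and 4.94 CPM. H2-Eb1, the beta chain of I-E, had 4.47, 1.93 and 2.44 CPM against 3.72, 4.01 and 2.23 CPM. In all 4 genes the same 3 mice were highest, deficient mouse 1 and wild-type mice 1 and 2, with deficient mice 2 and 3 and wild-type mouse 3 below them.

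The ratio of the highest to the lowest mouse was 2.01 to 2.31 in these 4 genes. Its median was 2.19, beside 1.45 over the 1839 tested genes of the same range of mean CPM. The corresponding medians were 1.41 for class I, 1.57 for the type I response and 1.58 for the GTPases, beside 1.34, 1.36 and 1.64 over tested genes in the range of each. Between genotypes 0 of the 4 class II genes were called by edgeR, DESeq2 or limma-voom, and 0 had an unadjusted p under 0.05. Their log2 fold changes were -0.43 ± 0.30 (H2-Ab1), -0.29 ± 0.30 (H2-Aa), -0.18 ± 0.32 (H2-Eb1) and 0.06 ± 0.30 (Cd74, SE), and the standard errors reflect the wide spread between mice of a genotype. Ciita, the class II activator, had 1 to 5 reads a mouse.

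The pseudogene of the I-E alpha chain, H2-Ea-ps, had 0 reads in each of the 6 mice, which allows up to 0.121 to 0.147 CPM (3 counts a library, counting error only). C57BL/6 mice are known not to express that chain, and this gene was chosen after its values were seen. Markers of other antigen-presenting cells and of lymphocytes varied in level. Of 10 lymphocyte markers Ms4a1 had 0 reads in every mouse, Cd3g 0 or 1, and Cd8a and Nkg7 0 to 3, while Cd4, which is also known outside lymphocytes, had 101 to 212. The summed level of 6 dendritic cell markers was 42.1, 24.3 and 37.3 CPM in deficient and 45.5, 50.8 and 49.1 CPM in wild-type mice, without overlap. Nearly all of it came from Flt3 and Zbtb46, the 2 that were tested. Their log2 fold changes were -0.62 ± 0.17 and -0.44 ± 0.18 (SE, edgeR adjusted p = 0.0766 and 0.171). Both had an unadjusted p under 0.05 by edgeR, as did 24.9% of all tested genes. DESeq2 called 1 of them lower, beside 1213 called of all 15127 tested genes. The other 4, Itgax, Xcr1, Cd209a and Clec9a, had 0 to 14 reads a mouse. The sum thus rests on 2 genes and does not show the number of dendritic cells. The summed level of 6 border macrophage markers was at least 17.7 CPM in deficient mice 1 and 3, 12.8 CPM in deficient mouse 2, and 13.9, 12.9 and 15.2 CPM in wild-type mice, so that deficient mouse 3 was high here and low in class II. That of 6 choroid plexus markers was 905, 716 and 603 against 935, 801 and 862 CPM, with deficient mice 2 and 3 lowest. The part of these cells in the class II levels was not tested.

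**Figure D4:**
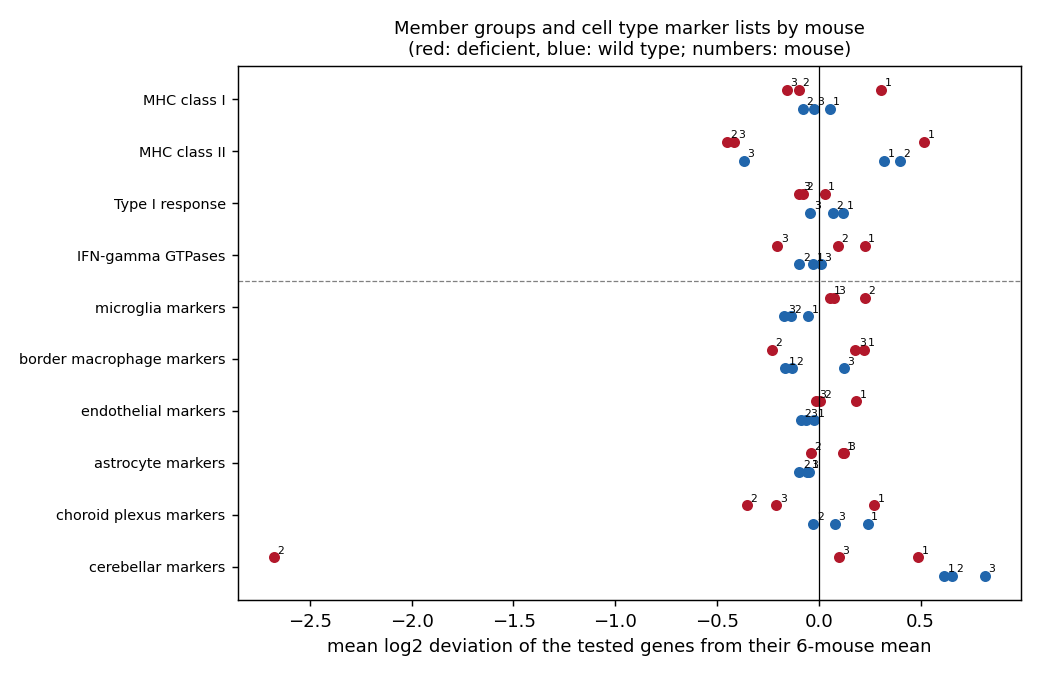
Mean log2 deviation of the tested genes of each list from their mean over 6 mice (horizontal axis), with 1 point per mouse, numbered 1 to 3, red for deficient and blue for wild type. Class II ran from -0.45 to 0.52 across both genotypes, type I response genes stayed between -0.10 and 0.12, and the cerebellar markers of deficient mouse 2 lay at -2.68.

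Upstream of these genes, the interferons themselves were at or near 0. Of 11 listed ligand and receptor genes the ligands Ifnb1, Ifna4, Ifnk and Ifnl2 had 0 reads in all 6 mice, and Ifng had 2 reads in 1 deficient mouse. The receptor chains were present. Ifnar1, of the type I receptor, had a mean of 57.6 CPM in deficient and 59.1 CPM in wild-type brain, and Ifngr1, of the gamma receptor, 18.3 and 16.9 CPM. Of the 6 tested genes 0 were called by edgeR, DESeq2 or limma-voom. At an unadjusted p under 0.05 by edgeR 1 was lower, 16.7% beside 24.9% of all tested genes. That gene was Ifnlr1, with a log2 fold change of -0.96 ± 0.42 (SE). It had 11, 5 and 4 reads in the deficient libraries and 17, 12 and 11 in the wild-type libraries, and reached the filter through the wild-type mice.

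Among 12 genes of signalling and feedback 1 was called higher and 1 lower by edgeR, 16.7% of a short list beside 4.93% of all tested genes. Jak2, the kinase of the gamma receptor and of several cytokine and hormone receptors, had 64.2, 63.2 and 68.2 CPM in deficient mice and 54.3, 56.8 and 54.9 CPM in wild-type mice. All deficient mice were higher, by a log2 fold change of 0.24 ± 0.05 (SE; edgeR adjusted p = 0.0372). Ptpn2, a phosphatase that switches off Jak and Stat proteins, had 17.4, 15.4 and 17.8 CPM against 22.1, 21.8 and 20.7 CPM. All deficient mice were lower, by a log2 fold change of -0.35 ± 0.08 (SE; edgeR adjusted p = 0.0394). With each mouse removed in turn, Jak2 stayed called in 2 of 6 fits and Ptpn2 in 1. Over all tested genes these fits called 44 to 2098, beside 746 with all mice. Ptpn2 also lost its call with offsets for GC content and length.

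Of 12 tested sensing genes 0 were called by edgeR, DESeq2 or limma-voom. At an unadjusted p under 0.05 by edgeR 2 were lower, 16.7% beside 24.9% of all tested genes. Samhd1, a nucleotide-degrading restriction factor, had the smallest p of these, with 20.6, 16.3 and 18.1 CPM in deficient and 23.2, 22.9 and 22.3 CPM in wild-type mice (log2 fold change -0.32 ± 0.09, SE, adjusted p = 0.0749 by edgeR). Of 14 tested genes of peptide generation and loading 2 were higher and 0 lower by edgeR, and likewise by DESeq2 and limma-voom. At an unadjusted p under 0.05 by edgeR 3 were higher, 21.4% beside 24.9% of all tested genes. The share called by edgeR was 14.3%, beside 4.93% of all tested genes. The 2 called were Calr and Pdia3, chaperones of the endoplasmic reticulum that serve glycoproteins in general as well as class I molecules. Calr lost its call with offsets for GC content and length and stayed called in 2 of 6 fits with a mouse removed. These fits called 44 to 2098 of all tested genes, beside 746 with all mice. Pdia3 had 222, 235 and 224 CPM in deficient and 197, 195 and 200 CPM in wild-type mice, a log2 fold change of 0.20 ± 0.04 (SE; edgeR adjusted p = 0.0413), and it stayed called in 1 of 6 fits with a mouse removed. The interferon-induced proteasome subunits Psmb8 and Psmb9 had 0.16 ± 0.38 and -0.34 ± 0.36 (SE).

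Per transcript length most of the 47 genes were low in brain. Means over the 6 mice were at least 5 RPKM for 9 genes, between 1 and 5 RPKM for 14 and under 1 RPKM for 24. H2-D1 (25.9), Ifi27 (21.8), B2m (14.8), H2-K1 (12.5) and Tapbp (10.8 RPKM) led the order. Ifi27, the highest type I response gene on this scale, had 19.0 to 24.0 CPM over all mice, with no separation of the genotypes. At the other end Nlrc5 (0.0677), Mx1 (0.0596), Igtp (0.0525) and Ciita (0.0222 RPKM) had at most 14 reads in any mouse.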

How the data were processed

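RNA sequencing of brain from 6 mice (3 deficient, 3 wild type) was analysed from 1 table. Per the file headers, the authors deposited raw counts per gene symbol and mouse, a mean signal over all mice, and the results of a comparison: log2 fold change and standard error, Wald score, unadjusted p-value. Its log2 values have wild type as numerator. The submitters' processing notes name DESeq2 and GRCm38. For the aligner, the counting program, its use of strand and the annotation, nothing is stated in the sources used here, so reads of overlapping and antisense genes cannot be told apart.

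Counts were tested with edgeR 4.0.16 in R 4.3.3 (minimum count 10, minimum total 15, trimmed mean of M-values scaling, genotype as the only factor), on the whole table of 15127 genes, with Benjamini-Hochberg adjustment and a threshold of 0.05. CPM are counts relative to the scaled totals of tested genes. Standard errors come from the F statistic. RPKM divide CPM by the longest GENCODE M21 transcript. Near copies were found by nucleotide alignment of transcripts, and the test was tested on simulated data. Alternatives were other scalings, filters and thresholds, DESeq2 1.42.0, limma-voom (limma 3.58.1), GC and length offsets, a replicate block and leaving out each mouse. Libraries were of like depth. The upper bound given for 0 reads covers counting error only, while SD and standard errors include the spread between mice.

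The genes, their groups and all lists were chosen with earlier results of these data known. Values by mouse are given for genes that passed the test or did not overlap, for the 3 smallest p-values of each group and for a few abundant genes. Of the pathway lists, called genes or else the gene of smallest p are named. The values of other genes were chosen after they were seen.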

Additional observations from a re-analysis of the deposited data

How the results depend on the processing

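The count of genes called higher was 1, and 1 under each other scaling, filter, threshold and test, but 0 with the replicate block and 0 with that block and GC and length offsets. It ranged from 0 to 1 in fits without 1 mouse. The count called lower was 0, and 1 with DESeq2 (Stat2), 2 at an adjusted p under 0.10 (Stat2 and Irf7) and 0 to 3 without 1 mouse. The 3 were H2-D1, Stat2 and Irf7 without deficient mouse 1, in a fit that called 2098 genes over the whole table. At an adjusted p under 0.10 by edgeR, 1792 of all 15127 tested genes were called. Over all genes 746 were called, but 1121 with no low-count filter, 1213 with DESeq2, 58 with the replicate block and 111 with the block and offsets; without 1 mouse the number ran from 44 to 2098. Same-numbered mice of the 2 genotypes deviated from their genotype means with correlations of -0.06, -0.06 and 0.14. Only the mice numbered 3 correlated best with their own number. With 3 mice a genotype these deviations are not independent, so they cannot settle whether the numbers pair the mice. With the replicate block Irgm1 had an adjusted p of 0.0902 by edgeR, at a log2 fold change of 0.52. Of 324 refits of 21 named genes 305 kept direction and side of the threshold, 7 lost the call (all Irgm1), 4 gained one and 8 changed sign without being called. Without 1 mouse the log2 fold change ranged from -0.20 to 0.12 for H2-K1 (positive without deficient mouse 2, deficient mouse 3 or wild-type mouse 3, at 0.01, 0.06 and 0.12), from -0.37 to 0.0042 for H2-D1 and from -0.60 to 0.057 for H2-Eb1 (both positive without deficient mouse 2), and from -0.34 to 0.26 for Cd74 (negative without deficient mouse 1 or wild-type mouse 3, at -0.34 and -0.15). Cd74 was also -0.015 with block and offsets. The medians of all 4 groups changed sign in at least 1 alternative. The cause of these changes was not tested. Genes under about 1 CPM had standard errors of 0.24 to 0.36 on the log2 scale, which limits what could be called. Errors of this size were not particular to them. H2-T23 had 0.36 at a mean of 1.48 CPM, H2-Eb1 0.32 at 3.13 CPM and Cd74 0.30 at 7.32 CPM, while Tapbp had 0.06 at 31.2 CPM. The part of low counts in the number called was not tested.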
